A study of Mus musculus with 12 samples.

Results

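The genes described here are Brdt, Brd2 and Brd3, members of the BET family of mouse bromodomain genes, and they are 3 of the 21938 protein-coding genes in the annotation used. Their members in the data were dREG peaks, the places where nascent RNA shows the signature of transcription initiation, and a peak was counted as a promoter peak when its edge lay under 1000 bp from any GENCODE M21 transcription start site (TSS) of a listed gene. By this rule 37 peaks of 178062 were found, 12 of them from leptonema/zygonema (LZ), 13 from pachynema (P) and another 12 from diplonema (D), and 4 more peaks lay in the body of Brdt without being promoter peaks. The rule used position alone and no measured value. The peak farthest from a TSS that was still counted lay 682 bp away in Brd2, and the nearest peak left outside lay 1469 bp from a TSS in Brdt.

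The study measured nascent transcription by leChRO-seq, a chromatin run-on assay in which engaged RNA polymerases extend their transcripts in isolated chromatin with a biotin-labelled nucleotide, in spermatocytes of adult wild-type (WT) mice. Cells were separated by STAPUT, sedimentation at unit gravity, into fractions enriched for leptonema/zygonema, pachynema or diplonema, with 4 libraries of each and 12 in all, and no treatment was given to these samples. The fractions were enriched and not pure, and the study names elongated spermatids, and possibly germ cells that were younger or older, as the other cells in them. The libraries of a substage had been merged before peak calling, leaving 1 list per substage, so no value below has a replicate error and none of the differences between substages was tested. The 3 lists held 71107 (LZ), 68352 (P) and 38603 (D) peaks.

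BET proteins carry tandem bromodomains that bind acetylated lysines on histones, and they help recruit the elongation factor P-TEFb, a kinase that releases paused RNA polymerase II. BRDT is the testis-specific member, made in spermatocytes and spermatids and required for spermatogenesis, whereas BRD2 and BRD3 are made in most tissues. A gene can have several alternative TSSs, and dREG reports where initiation takes place without naming the strand or the transcript.

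The sequences before the most upstream start of each gene are given because the calls over them, described below, set the genes apart: the starts of Brdt and Brd2 were covered by a peak in all 3 substages, and the upstream start of Brd3 in pachynema and diplonema. Each is written 5′ to 3′ on the strand of the gene, from the reference genome GRCm38 (mm10), as the 250 bases before the outermost TSS of the group, or as the 187 bases between the GENCODE starts of Brd2 and H2-DMa nearest to each other. RefSeq also lists predicted starts of Brd2 (34122814) and of H2-DMa (34122691) inside the latter. Capitals mark matches to 10 consensus motifs searched on both strands.
Brdt start, chr5:107330909-107331158, plus strand: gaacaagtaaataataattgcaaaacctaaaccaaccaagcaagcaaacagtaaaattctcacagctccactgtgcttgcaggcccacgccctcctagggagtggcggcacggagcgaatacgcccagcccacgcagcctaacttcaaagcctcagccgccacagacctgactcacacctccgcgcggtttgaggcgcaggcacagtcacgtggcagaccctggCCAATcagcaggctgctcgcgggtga
Brd3-209 upstream start, chr2:27507663-27507912, minus strand: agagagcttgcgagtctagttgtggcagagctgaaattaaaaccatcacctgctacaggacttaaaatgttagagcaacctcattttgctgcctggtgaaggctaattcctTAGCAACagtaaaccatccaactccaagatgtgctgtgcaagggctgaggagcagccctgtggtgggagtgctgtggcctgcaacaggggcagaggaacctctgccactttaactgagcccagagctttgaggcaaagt
Brd2 and H2-DMa shared start, chr17:34122635-34122821, minus strand: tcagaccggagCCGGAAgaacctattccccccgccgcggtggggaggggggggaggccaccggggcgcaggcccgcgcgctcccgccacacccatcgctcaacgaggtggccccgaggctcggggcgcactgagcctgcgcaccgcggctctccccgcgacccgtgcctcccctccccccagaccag

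The motifs searched were a MYB core spelled GGCNGTT, a second MYB core spelled CAGTTG, the CRE palindrome spelled TGACGTCA, an RFX core spelled GTTGCNA, the CCAAT box, the GC box spelled GGGCGG, the TATA box spelled TATAAA, an ETS core spelled CCGGAA, a YY1 core spelled AAGATGG and the NRF1 palindrome. None of them contains another, and matches may overlap. The Brdt start had 57.2% GC, 14 CpG dinucleotides and 1 match, a CCAAT box 26 to 22 bases upstream of the GENCODE start. RefSeq lists predicted Brdt transcripts from 107331116, and from that position the box lies downstream. The upstream Brd3 start had 50.4% GC, 1 CpG and a single RFX match, on the opposite strand. The Brd2 interval, at 187 bp shorter than the other windows, had 77.0% GC, 22 CpGs and 1 ETS match, and the 250 bp before the Brd2 start had 74.8% GC and 25 CpGs.

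Over the 48594 windows of 250 bp before start groups of protein-coding genes, median GC was 49.6% and the median number of CpGs was 4. Of these windows 8.94% held GGCNGTT, 31.8% CCAAT, 22.8% a GC box, 7.84% the RFX letters and 8.5% the ETS letters. CAGTTG was found in 11.6%, TATAAA in 14.0%, YY1 in 4.7%, CRE in 1.11% and NRF1 in 0.494%. Among the 14361 windows whose start lay inside a peak of at least 1 list, median GC was 58.4%, the median number of CpGs was 14, 9.76% held the RFX letters, 35.8% CCAAT and 19.4% the ETS letters. The 300 bp around the centre of the highest-scoring promoter peak were also searched for Brdt and Brd2. The Brdt window held a single CCAAT box in each substage, where 37.7% (LZ), 36.2% (P) and 36.0% (D) of genes had one. The Brd2 window lay over a different peak by substage. In leptonema/zygonema it was centred on the peak over the H2-DMa starts inside Brd2 and held 3 CCAAT boxes, 1 CRE and 1 GC box, motifs found in 37.7%, 3.93% and 60.9% of genes. In pachynema and diplonema it was centred on the shared first start and held 1 ETS match (26.7% and 28.2% of genes) and 1 NRF1 match (1.94% and 2.07%).

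All 3 BET genes had a promoter peak in every substage, as did 10851 of the 21938 protein-coding genes. By list, 60.2% (LZ), 60.5% (P) and 51.6% (D) of those genes had one, so that being called is not particular to the family. The number of promoter peaks differed between them. Brdt had 1, 4 and 3 in leptonema/zygonema, pachynema and diplonema, Brd2 had 8, 6 and 7, and Brd3 had 3, 3 and 2. In lists of equal size the counts were 1, 2 and 3 for Brdt, 3, 4 and 7 for Brd2 and 3, 1 and 2 for Brd3, so that the substage with the most peaks changed for Brdt and Brd2. Brd2 also has the most annotated starts, 19, against 10 for Brd3 and 4 for Brdt, where the median protein-coding gene has 3. When promoter peaks that overlapped by at least 1 bp were joined across substages, 10 sites remained, and 3 of them were called in all substages: 1 of 3 sites of Brdt, 2 of 3 of Brd2 and 0 of 4 of Brd3. Joined in the same way, 53.0% of the 24099 promoter sites of all protein-coding genes were called in all substages.

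**Figure D1:**
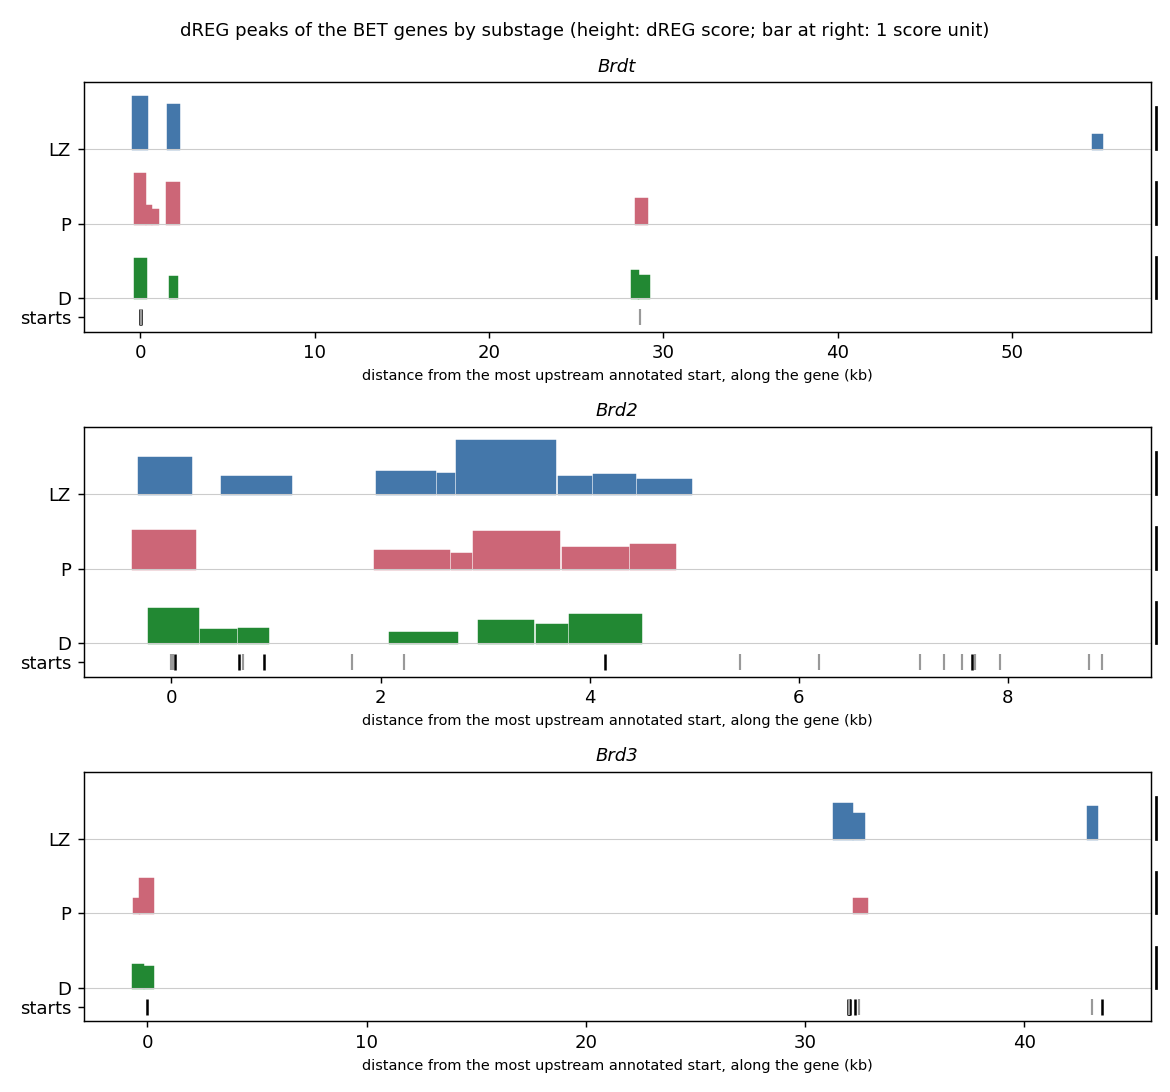
Peaks of Brdt, Brd2 and Brd3 in the lists of leptonema/zygonema (LZ), of pachynema (P) and of diplonema (D), by distance in kb from the most upstream annotated start along the direction of transcription. Bar width is peak width, bar height is the dREG score (scale bar at right, 1 unit), and ticks mark the GENCODE starts of coding (black) and other (grey) transcripts. The first site of Brdt is present in each list, the site over its inner start only in P and D. Brd3 has peaks over its upstream start in P and D but not in LZ, and over its main start in LZ and, at a low score, in P.

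Brdt (ENSMUSG00000029279.15) lies on the plus strand of chromosome 5, from 107331159 to 107387058. Its first start group, 3 TSSs (107331159, 107331175 and 107331192), was covered by a peak in each list. That peak had a dREG score of 1.268 in leptonema/zygonema (chr5:107330691-107331550), 1.226 in pachynema (chr5:107330811-107331450) and 0.981 in diplonema (chr5:107330801-107331500). Scores are not scaled between lists and were therefore read as a rank within each list: 95.5% of the leptonema/zygonema peaks had a lower score, 95.4% of those in pachynema and 88.1% of those in diplonema. The peak centres lay 78, 58 and 68 bp upstream of the first TSS, so the position of this site hardly moved between the lists. In lists of equal size, each cut to its 38603 highest scores (an alternative for single peaks chosen after seeing the data), the peak exceeded 91.7%, 91.8% and 88.1%.

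A further peak stood in an intron downstream of the Brdt start in all 3 lists, centred 1942, 1922 and 1912 bp from it. It is not a promoter peak by the rule, lying 1479 bp (LZ), 1469 bp (P) and 1629 bp (D) from the nearest GENCODE TSS. Its score of 1.079 in the leptonema/zygonema list, 0.992 in that of pachynema and 0.532 in that of diplonema exceeded 84.7%, 82.5% and 49.9% of the peaks of the list, and 71.8%, 69.0% and 49.9% in lists of equal size. RefSeq places the start of a predicted Brdt transcript (XM_030254058.1) at 107333105, inside this peak in each list. Pachynema alone had 2 low peaks between these sites, with scores of 0.441 and 0.357, at 279 and 619 bp from a TSS.

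The inner start of Brdt, that of the non-coding transcript Brdt-204 at 107359837, is 28678 bp downstream of the first and lies in coding exon 13 of the 19 exons of Brdt-201. No leptonema/zygonema peak was called there, and the nearest one in that list was 25884 bp away. In pachynema the start lay inside a peak of score 0.604 (chr5:107359541-107360230), above 53.4% of the list. In diplonema it lay inside a peak of score 0.555 (chr5:107359731-107360310), above 52.7% of the list, and a second peak of score 0.682 ended 127 bp before the TSS. In lists of equal size these peaks exceeded 17.5% (P), 52.7% and 66.0% (D). The site was thus called in both later substages and not in the earliest. The absence of a call does not show the absence of initiation, because the lists carry no read counts or depth.

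The leptonema/zygonema list had 1 more Brdt peak (chr5:107385721-107386320, score 0.354), which lay wholly within exon 19 of Brdt-201, near the 3′ end of the gene. Its score exceeded 14.6% of the list, while its deposited p-value was 0. Such pairs of a low score and a p-value of 0 were common, since 6851 of the 20914 leptonema/zygonema peaks with a p-value of 0 scored under 0.5, and p-values were not used to order peaks.

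Brd3 (ENSMUSG00000026918.16) lies on the minus strand of chromosome 2, from 27445579 to 27507662, and unlike Brdt it had no promoter site that was called in all substages. Its main start group holds 7 TSSs between 27475181 and 27475686. In leptonema/zygonema all 7 were covered, by a peak of score 0.852 (chr2:27475501-27476410) over 5 of them and a peak of score 0.625 (chr2:27474971-27475480) over the other 2. These scores exceeded 71.7% and 54.0% of that list, and 47.8% and 15.2% in lists of equal size. In pachynema only 2 of the 7 TSSs were covered, by a peak of score 0.375 (chr2:27474821-27475480) that exceeded 20.5% of the list and had a deposited p-value of 0. In lists of equal size that peak was not kept. In diplonema no peak was called, and the nearest lay 31705 bp away, at the upstream start.

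The upstream start, that of the coding transcript Brd3-209 at 27507662, is 31976 bp before the main group and had the opposite pattern. In leptonema/zygonema it had no peak, the nearest being 6249 bp away with a score of 0.303. In pachynema it lay inside a peak of score 0.864 (chr2:27507431-27508040), above 74.9% of the list (55.5% in lists of equal size), with a weaker peak of 0.365 at 399 bp. In diplonema it lay inside a peak of score 0.526 (chr2:27507391-27507830), above 49.2% of the list, and a second peak scored 0.585 at 189 bp. A RefSeq predicted transcript starts 5 bases away, at 27507657. Brd3-209 and the coding transcripts of the main group are annotated with the same start codon, at 27464098, so these starts differ in the leading exons. A further group, 2 TSSs at 27464116 and 27464582, the latter 43080 bp from the upstream start, was called in leptonema/zygonema alone, by a peak of score 0.784 over the start of the non-coding transcript Brd3-207, above 67.1% of the list and 39.5% of the list of equal size.

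Across protein-coding genes, TSSs no more than 1000 bp apart were joined into 48607 start groups. The upstream start of Brd3 and the inner start of Brdt were among the 485 groups called in pachynema and diplonema but not in leptonema/zygonema, 0.998% of all groups and 2.83% of the 17139 called in any list. Groups called in leptonema/zygonema but not in diplonema, such as the main and innermost groups of Brd3, were more frequent, at 3580 or 7.37%. These were counted with or without a pachynema call, unlike the 485, and those with one were 2403 (4.94%). The leptonema/zygonema list is also longer, at 71107 peaks against 38603 in diplonema, and its part in this difference was not tested. Of the 12355 genes with at least 2 start groups, called or not, 57 (0.461%), Brd3 among them, had both kinds. That is, they had a group called only in both later lists and another called in leptonema/zygonema but not in diplonema. Brdt was among the 118 genes (0.955%) with 1 group called in every list and another called only in the later substages. The 12355 include genes with fewer than 2 called groups. Shares among genes with at least 2 called groups would be higher and were not computed. When a group counted as called only with a TSS inside a peak, 441 groups (0.907%) were called in both later substages alone and 3069 (6.31%) in leptonema/zygonema but not in diplonema. The genes with both kinds were then 47 (0.38%), Brd3 among them, and those with a constant and a later group 70 (0.567%). These groupings were drawn up after the peaks of Brd3 and Brdt had been seen, and give how common their patterns are, not a test of them.

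**Figure D2:**
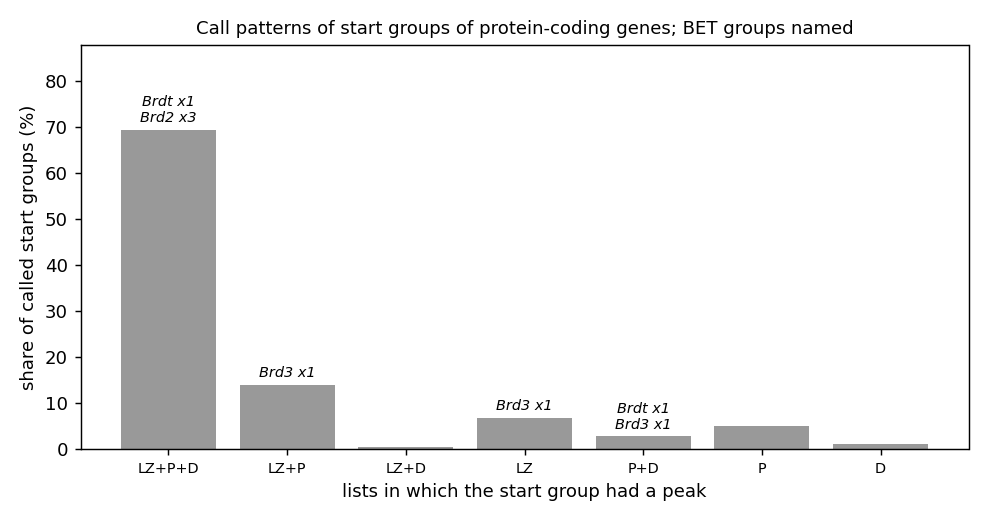
Share of the 17139 start groups of protein-coding genes with a peak in at least 1 list (vertical axis, percent), by the lists in which they were called (LZ, P and D). Names above the bars give the BET start groups in each class, with their number; groups called in all lists made up 69.5%, and those of Brdt and Brd3 called in P and D belong to the 2.83% class.

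Brd2 (ENSMUSG00000024335.20) lies on the minus strand of chromosome 17, from 34112023 to 34122634, and its first start was covered in each list. The TSSs at 34122600, 34122619 and 34122634 lay inside a peak of score 0.892 in leptonema/zygonema (chr17:34122451-34122950), 0.933 in pachynema (chr17:34122411-34123010) and 0.852 in diplonema (chr17:34122381-34122860). These exceeded 74.2%, 79.2% and 79.7% of the lists, and 52.4%, 63.1% and 79.7% of lists of equal size. The same peaks covered 3 TSSs of H2-DMa, which encodes a chain of the MHC class II peptide-loading protein H2-DM and is transcribed the other way, from 34122822 on. A peak over such a divergent pair cannot be assigned to either gene from the lists.

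Most of the Brd2 peaks lay further in, in a continuous stretch from 34117661 to 34120700 that held 6, 5 and 4 peaks in leptonema/zygonema, pachynema and diplonema. The highest of them in leptonema/zygonema had a score of 1.3 (chr17:34118961-34119910), above 96.9% of the list. The peak at the same place scored 0.896 in pachynema, above 76.9%, and 0.554 in diplonema, above 52.6%. This site thus ranked lower in each later list, also in lists of equal size, where it exceeded 94.3%, 59.1% and 52.6%. It covered no GENCODE TSS of Brd2, but those of H2-DMa-206 (34119541) and H2-DMa-208 (34119588) in all lists. In leptonema/zygonema it also covered the start of a RefSeq Brd2 transcript, NR_037970.1, at 34119900. In that list 940 of its 950 bp lay in exon 2 of Brd2-201. Since the lists name no strand, this peak cannot be assigned to Brd2 or H2-DMa either.

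The start of the coding transcript Brd2-202, at 34118489 and 4145 bp from the first, showed the opposite order. The peak over it scored 0.476, 0.526 and 0.697 in leptonema/zygonema, pachynema and diplonema, above 36.3%, 44.4% and 67.3% of the lists. At Brd2-207 (34120411), a transcript annotated for nonsense-mediated decay, the score was 0.55, 0.443 and 0.272, above 46.0%, 32.8% and 1.49%. In leptonema/zygonema and pachynema this peak also held the TSS of CR974462.3, at 34120568. In lists of equal size the order at Brd2-207 was lost, with 0.518% in leptonema/zygonema, no peak in pachynema and 1.49% in diplonema, and at Brd2-202 the peak was absent from leptonema/zygonema and above 1.59% and 67.3% of the later lists. The TSSs of Brd2-203, Brd2-213 and Brd2-206, from 34121747 to 34121988, were covered in leptonema/zygonema (score 0.421) and diplonema (0.367) but not in pachynema, and diplonema had a further peak of 0.344 next to them. No peak of any list covered the 10 TSSs between 34113732 and 34117195 or that of Brd2-218. In all, peaks covered 8, 5 and 8 of the 19 Brd2 TSSs in leptonema/zygonema, pachynema and diplonema, against 3, 4 and 4 of 4 for Brdt and 8, 3 and 1 of 10 for Brd3. Of the 93513 TSSs of all protein-coding genes, the peaks of these lists covered 41.4%, 41.6% and 34.8%.

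**Figure D3:**
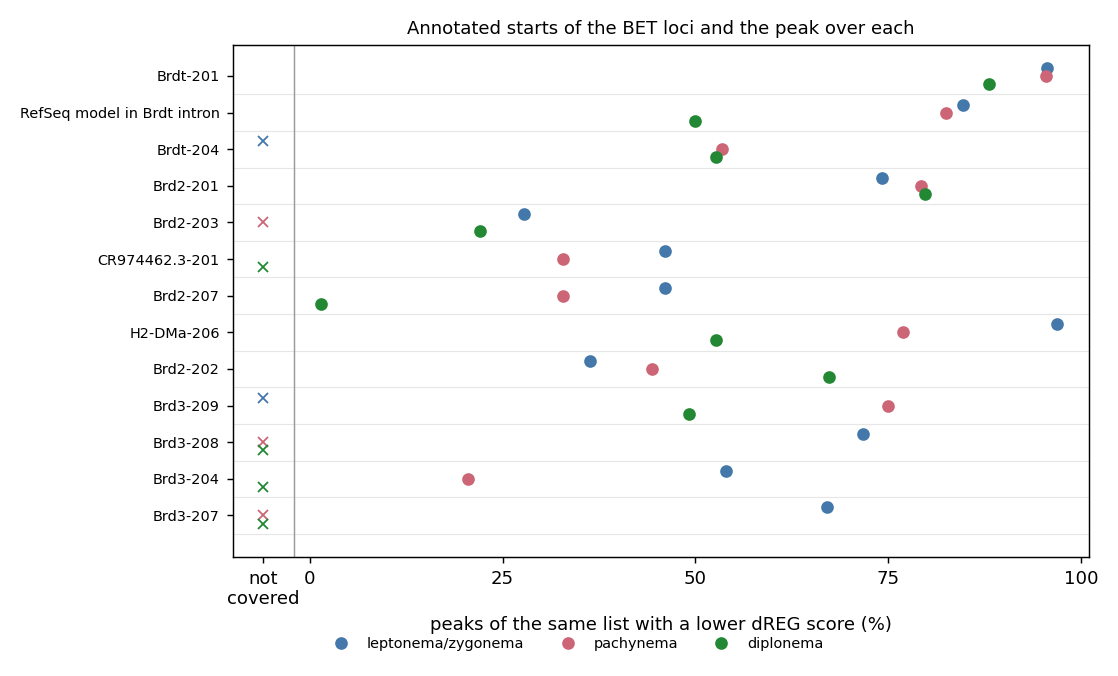
Rank of the peak over each start of the BET loci that was covered in at least 1 list (starts under the same peaks share 1 row, named by 1 of their transcripts), as the percent of peaks in the same list with a lower dREG score (horizontal axis), in leptonema/zygonema (blue), pachynema (red) and diplonema (green). Crosses at the left mark starts that no peak of the list covered. The first starts of Brdt and Brd2 are covered in each list, at 88.1% or more and 74.2% or more, whereas each Brd3 row has at least 1 cross.

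To compare the testis member with the general members, each gene was given the highest score among its promoter peaks, ranked as a percentile among all protein-coding genes called in that list (13203 in LZ, 13272 in P and 11328 in D). Brdt was at percentile 86.9, 82.4 and 67.9 in leptonema/zygonema, pachynema and diplonema. A percentile orders scores within a list and does not measure an amount of transcription. From read counts, the study placed Brdt in a cluster of genes with a large increase of nascent transcription in pachynema. Such a change cannot be read from these ranks. Brd3 was the lowest of the 3 genes throughout, at 30.9, 34.2 and 24.9. Its leptonema/zygonema value came from the peak of score 0.852 over its main start. Those in pachynema (0.864) and diplonema (0.585) came from peaks at the upstream start, 31976 bp away, and the diplonema peak covered no TSS. Brd2 was at 91.2, 40.2 and 51.9, so that the order of Brdt and Brd2 differed between leptonema/zygonema and the later substages.

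The change from leptonema/zygonema to pachynema was -51.0 percentile points for Brd2, -4.42 for Brdt and 3.33 for Brd3. Over the 10851 genes called in all lists, the median absolute change was 10.1 points, and the upper decile was 29.2. The Brd2 value in leptonema/zygonema came from the peak over the H2-DMa starts inside Brd2, and those in pachynema and diplonema from the peak over the first start, shared with other H2-DMa starts. The 3.33 points of Brd3 likewise compared different starts, the main one in leptonema/zygonema and the upstream one in pachynema. At the main start the highest peak exceeded 71.7% of the leptonema/zygonema list and 20.5% of the pachynema list. The upstream start had no leptonema/zygonema peak. With only peaks that held a TSS of the gene itself, an alternative chosen after seeing the data, Brd2 was at 34.9, 40.9 and 51.8, all from the shared first start, so that this alternative does not separate Brd2 from H2-DMa. Brdt then ranked above it in every list, at 86.7, 82.2 and 68.1. From pachynema to diplonema, Brdt changed by -14.5, Brd2 by 11.7 and Brd3 by -9.33 points, where the median absolute change of all genes was 12.4 and the upper quartile 22.3. The diplonema list is the shortest, and the changes of Brd2 and Brd3 depended on how the lists were matched. That of Brdt moved less, to -12.1 with lists of equal size and -11.9 with ranks among genes called in all 3 lists. With lists of equal size the changes were -0.3 for Brd3 and 19.9 for Brd2, and with ranks among genes called in all 3 lists they were 0.9 and 21.8, so that the change of Brd3 nearly vanished or turned.

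The direction for Brdt depended on the measure. Ranked by the sum of the scores of all promoter peaks of a gene, the percentiles of Brdt by substage were 30.2, 77.9 and 84.6, with 1, 4 and 3 peaks in the sum. By the same sum, Brd2 was at 99.2, 95.8 and 98.9 and Brd3 at 67.7, 41.3 and 39.2, and Brd3 was lower rather than higher in pachynema than in leptonema/zygonema.

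**Figure D4:**
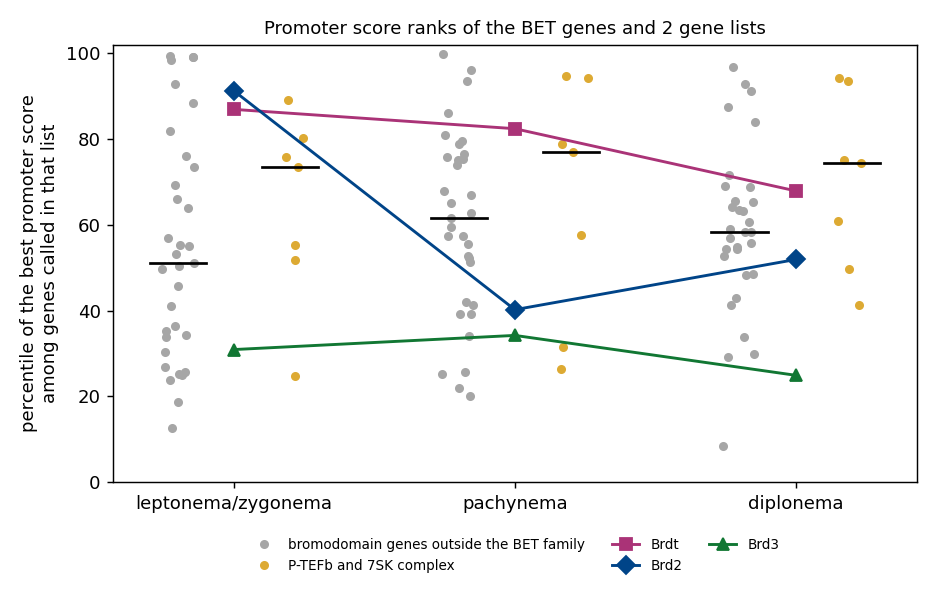
Percentile of the highest promoter score of Brdt (squares), Brd2 (diamonds) and Brd3 (triangles) among the protein-coding genes called in each list, by substage. Grey and yellow points are the other bromodomain genes and the P-TEFb and 7SK genes with a promoter peak, and black bars are their medians. Brdt lies above the bromodomain median of 51.0, 61.6 and 58.4 in all 3 lists and Brd3 below it. Brd2 lies above it in leptonema/zygonema and below it in pachynema and diplonema.

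The genes nearest to each member in these 3 percentiles were found among 10850 genes called in all lists, by Euclidean distance over the 3 substages. For Brdt they were Trmt10c, 1700113H08Rik, Ttll10, Aco1 and Sec24c, at 2.48 to 3.18 points. For Brd3 they were Bcl7c, Usp49, Angel1, Acaa2 and Bfsp1, at 1.05 to 2.21 points. The nearest to Brd2 was H2-DMa, at 0.0 points because both took their highest score from the same peaks, and then Strip2, Rimbp3, Cisd2 and Stk39, at 4.17 to 7.86 points.

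The other bromodomain genes form a list of 36, of which 33, 33 and 31 had a promoter peak in leptonema/zygonema, pachynema and diplonema, or 91.7%, 91.7% and 86.1%, against 60.2%, 60.5% and 51.6% of all protein-coding genes. Of them, 31 (86.1%) were called in all 3 lists, as were 10851 of the 21938 protein-coding genes. No list held a promoter peak of Kat2a, an acetyltransferase, or of the nuclear body genes Sp110 and Sp140. Baz2a, of the nucleolar remodelling complex, and Zmynd8 had one in both earlier substages but not in diplonema. In pachynema the highest percentiles were those of Brd9, a subunit of a SWI/SNF remodelling complex (99.7), Trim24 (96.2) and the ATPase gene Atad2 (93.6), and the lowest those of Baz1b (20.0), Baz2a (21.9) and the histone methyltransferase gene Kmt2a (25.3). Against the median of this list in pachynema, 61.6, Brdt at 82.4 was higher and Brd2 at 40.2 and Brd3 at 34.2 were lower. In leptonema/zygonema Brd2, at 91.2 from the peak over the H2-DMa starts, was instead above the list median of 51.0. In diplonema, at 51.9, it was below that of 58.4.

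All 7 genes of the P-TEFb and 7SK complex, the elongation machinery with which BET proteins work, had a promoter peak in each list, where 60.2%, 60.5% and 51.6% of all protein-coding genes had one, and their median percentile was 73.4, 77.0 and 74.4. In pachynema the cyclin gene Ccnt1 (94.6), Hexim2 (94.2), which encodes a P-TEFb inhibitor, and Larp7 (78.9), for a 7SK RNA-binding protein, were highest. Hexim1 (26.3), the other inhibitor, Mepce (31.6), which encodes the 7SK capping enzyme, and the kinase gene Cdk9 (57.6) were lowest.

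The cell labels were checked against marker genes, whose counts stand against 60.2%, 60.5% and 51.6% of all protein-coding genes with a promoter peak in the 3 lists. All 10 spermatocyte markers had a promoter peak in each list, at a median percentile of 60.6, 74.0 and 82.6. Sycp1, Sycp2, Sycp3, Syce1, Hormad1 and Meiob, genes of the chromosome axis, synaptonemal complex and recombination, ranked higher in diplonema than in leptonema/zygonema, for example Sycp3 at 96.7 against 47.7. The recombination genes Dmc1 (18.3 against 58.4), Spo11 (54.1 against 59.0) and Mlh3 (15.2 against 27.3), and Mybl1 (38.2 against 62.2), which encodes the transcription factor A-MYB, ranked lower. Of 7 spermatogonial markers, 6, 6 and 4 were called, with a median percentile of 47.6, 40.4 and 19.3. Gfra1 was called in no list and Sall4 and Stra8 in all but diplonema. Kit and Dmrt1 were at 48.7 and 53.3 in leptonema/zygonema and at 4.88 and 3.92 in diplonema, whereas Zbtb16 (30.4 and 33.7) and Uchl1 (46.6 and 43.0) differed little between these lists. Of 7 spermatid markers 6 were called in each list, all but Tnp2, at a median of 34.9, 39.4 and 53.4, and the members differed in direction. From leptonema/zygonema to diplonema, Tnp1 (42.1 and 73.9), for a transition protein, and the protamine genes Prm1 and Prm2 (both 19.6 and 40.2, with the same scores in each list) were higher, while Acrv1 (93.1 and 66.6), Spaca1 (93.5 and 89.4) and Tssk6 (27.7 and 7.37) were lower.

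Of 6 Sertoli cell markers, 2, 4 and 3 had a promoter peak (33.3%, 66.7% and 50.0%, against the same shares of all genes), with a median percentile of 20.7, 21.2 and 16.3, and Rhox5 and Amhr2 had none. Gata4 was the highest of them in both earlier substages, at 36.9 and 41.4, and Sox9 in diplonema, at 23.1, and Wt1 and Cldn11 were absent from leptonema/zygonema. Of 6 Leydig cell markers, none was called in leptonema/zygonema, Cyp11a1 (6.84) and Lhcgr (0.625) in pachynema, and Lhcgr (1.41) in diplonema, while Cyp17a1, Star, Insl3 and Hsd3b1 were called in no list. Whether spermatids or other cells in the fractions contributed to the peaks of the BET genes was not tested.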

How the data were processed

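leChRO-seq libraries of 3 prophase I substages, 4 per substage, were the source of the data. Duplicate reads were dropped by the authors through their molecular identifiers (PRINSEQ lite), adapters were cut with cutadapt, and the authors mapped reads with BWA to mm10 and ran dREG with default settings. The deposited lists give each peak a position in steps of 10 bp, a dREG score, a p-value under 0.05 and, in a further column, a peak centre, which lay outside its own peak in 233, 233 and 149 peaks of the 3 lists. The authors deposited 1 list per substage, called on merged libraries, so replicate spread and sequencing depth are not known from them. The score is the authors' own and has no fixed scale; the deposited p-value is not stated to be adjusted.

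Starts, exons and gene types were taken from GENCODE M21, sequences from GRCm38.p6, and further transcripts from RefSeq. Positions were written 1-based. Peaks were ranked within a list only. Distances, ranks and motif scans were tested on simulated data. No p-value or test was computed, since no list has a replicate, and the p-values printed are the deposited ones. Wilson intervals served only to class alternative percentiles as close or moved. Start groups joined TSSs up to 1000 bp apart. The genes and gene lists were chosen with earlier results of these data known. Genes named were the members, genes with a TSS near their peaks, the 5 nearest genes in percentile, and, from the bromodomain and P-TEFb lists, the genes without a peak and the 3 highest and lowest in pachynema. Marker genes named were chosen after their values were seen. Motifs had been set for windows of 300 bp around peak centres; windows of 250 bp before the first start of each gene were added after the data were seen. The sequences at other starts are not reported here. Alternatives were a score of at least 0.5, a p-value of at most 0.01, lists cut to the 38603 highest scores, a TSS distance of 500 bp, coding transcripts only, peaks up to 100 bp apart joined, and other ranks. The tools were matplotlib 3.10.9, scipy 1.17.1, Python 3.11.15, pandas 2.3.3 and numpy 2.4.6.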

Additional observations from a re-analysis of the deposited data

How the results depend on the processing

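No paired analysis was possible because each list merges the 4 libraries of a substage and no result comes from a test. Leaving out a replicate was likewise not possible. Of 200 alternative values, 134 stayed close to those reported (a count within 1.5 times, a percentile within the 95% Wilson interval of the reported one, which covers only the counting of genes) and 66 moved. Of 72 changes in percentile between substages under the alternatives, 9 turned direction. By summed score these were the changes of Brdt from leptonema/zygonema to pachynema (47.7 points), from pachynema to diplonema (6.7) and from first to last (54.4), and that of Brd3 from leptonema/zygonema to pachynema (-26.4). From first to last, Brd3 turned with lists of equal size (3.8) and among genes called in all 3 lists (2.0), where it also turned from pachynema to diplonema (0.9). With a TSS inside a peak, Brd2 turned from leptonema/zygonema to pachynema (6.0) and from first to last (16.9). The upstream start of Brd3 and the inner start of Brdt were called in pachynema and diplonema and not in leptonema/zygonema with a score of at least 0.5, a p-value of at most 0.01 or lists of equal size, while the main start of Brd3 lost its pachynema call under the first and last of these. The innermost Brd2 group, 34113732 to 34117195, lost its leptonema/zygonema call under all 3, and no peak covers its TSSs in any list.

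Promoter peak counts moved as follows. With a score of at least 0.5, Brd2 had 4 in leptonema/zygonema and 3 in diplonema, and in pachynema Brd3 had 1 and Brdt 2. With lists of equal size, Brd2 had 3 in leptonema/zygonema, and in pachynema Brd3 had 1 and Brdt 2. With peaks up to 100 bp apart joined, Brd2 had 3, 2 and 3 in the 3 lists, Brd3 1 in diplonema and Brdt 2 in pachynema. With coding transcripts only, Brdt had 1 in diplonema. Peaks over the gene body moved to the same values for Brd2 under these settings, and for Brd3 in pachynema to 1 under the score and equal-size settings. For Brdt in pachynema they moved to 3 under the score, equal-size and joining settings.

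Percentiles are given in the order leptonema/zygonema, pachynema and diplonema. By summed score, Brdt was at 30.2, 77.9 and 84.6, Brd2 at 99.2, 95.8 and 98.9, and Brd3 at 67.7, 41.3 and 39.2. Among genes called in all 3 lists, Brdt was at 84.2, 78.5 and 66.6, Brd2 at 89.4, 28.2 and 50.0, and Brd3 at 20.5, 21.6 and 22.5. With a score of at least 0.5, Brdt was at 85.4, 80.3 and 61.0, Brd2 at 90.2, 32.8 and 41.5, and Brd3 at 23.2, 26.1 and 8.73. With lists of equal size, Brdt was at 85.0 and 80.0, Brd2 at 90.0 and 32.0, and Brd3 at 21.1 and 25.2, in the first 2 substages. With a p-value of at most 0.01, Brd3 was at 28.8, 32.1 and 21.4, Brd2 at 38.3 in pachynema and 49.6 in diplonema, and Brdt at 66.4 in diplonema. With a TSS inside a peak, Brd2 was at 34.9 in leptonema/zygonema and Brd3 at 19.7 in diplonema, and 70 genes had a start group called throughout and another only later, against 118. Except by summed score or with a TSS inside a peak, the order of the 3 genes within each list was as reported.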
